A study of Mus musculus with 11 samples.

Results

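The genes described here are 9 components of BMP and TGF-beta signalling in cultured mouse neural progenitor cells (NPCs), namely *Smad6*, *Smad7*, *Tgfbr1*, *Tgfbr2*, *Bmpr1a*, *Id1*, *Id2*, *Id3* and *Id4*. They were listed by name for their place in the pathway, with earlier results of these data known, and are 9 of the 53801 genes in the count files. All 9 were matched by symbol and all passed the filter on low counts in each comparison.

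BMP and TGF-beta ligands bind pairs of type I and type II serine/threonine kinase receptors on the cell surface. The type I receptor then phosphorylates receptor SMADs, which join the common partner SMAD4 and enter the nucleus, where the *Id* genes are among the best known BMP targets. In the embryonic brain these signals are known for their part in patterning, in progenitor maintenance and in astrocyte formation, and *Smad7* transcripts have been described as substrates of nonsense-mediated mRNA decay (NMD) in neural stem cells.

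Total RNA from neurosphere cultures of E13.5 mouse brains was sequenced after depletion of ribosomal RNA, in 11 libraries. SMG6 is the endonuclease of NMD, and the comparisons ask how the transcripts of NPCs differ once *Smg6* has been deleted. All 3 groups were of C57BL/6 mixed with 129SV background and carried *Smg6* Flox/Flox. The Ctr group was RosaCreER tg/+ without treatment (embryos SMH_128, SMH_132 and SMH_133). The Ctr + 4-OHT group was RosaCreER +/+, thus without the recombinase, and received 1 µM 4-OHT (4-hydroxytamoxifen, which activates CreER) for 3 days (embryos SMH_125, SMH_126, SMH_129 and SMH_131). The *Smg6*-iKO group was RosaCreER tg/+ and received the same 4-OHT treatment (embryos SMH_127, SMH_128, SMH_132 and SMH_133), and RNA was isolated 6 days after the start. The Rosa26 locus drives CreER in all cell types, so any cell of a culture could recombine. The groups Ctr and Ctr + 4-OHT differ in Cre genotype, in treatment and in embryos at once, and these cannot be told apart. *Smg6*-iKO differs from Ctr in the 4-OHT treatment as well as in the deletion. From Ctr + 4-OHT it differs in Cre genotype and in embryos as well as in the deletion. In neither comparison can these be told apart from the deletion.

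The reads assigned to genes numbered 26418249 to 33756875 in each library. Levels are given in CPM (counts per M counts, scaled by the TMM method over the 11 libraries), and a library is named by its group and embryo. The values of the libraries of a group are always given in the order in which the embryos are listed above. All 8 progenitor markers examined, *Sox2*, *Nes* and *Pax6* among them, were above 1 CPM on average. The summed level of 6 microglia and blood markers was 0.451 to 1.47 CPM and that of 5 endothelial markers 4.73 to 7.58 CPM in every library. The summed level of 6 pericyte and mesenchymal markers was 1434 CPM in *Smg6*-iKO SMH_127, against 266 to 643 CPM in the other *Smg6*-iKO libraries, 296 to 848 CPM in Ctr + 4-OHT and 353 to 500.3 CPM in Ctr, so *Smg6*-iKO SMH_127 stands apart in these genes. In bulk RNA, fewer cells of a type and less RNA per cell cannot be told apart. *Smg6* itself had 66.0 ± 4.57 CPM (SD, n = 4) in *Smg6*-iKO, 69.3 ± 3.22 (n = 4) in Ctr + 4-OHT and 74.4 ± 4.96 (n = 3) in Ctr. Against Ctr the difference was -0.17 (adjusted p = 0.148 from edgeR), and it was called once the embryo entered as a block (-0.15, adjusted p = 0.0430). These are totals over the gene, so they do not show the loss of the floxed part. The NMD-sensitive non-coding transcript *Zfas1* exceeded its level in Ctr + 4-OHT by 2.33 on the log2 scale in *Smg6*-iKO (adjusted p = 2.02e-06 in the quasi-likelihood test of edgeR).

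Divided by the exonic length of each gene, the mean level over the 11 libraries was highest for *Id2*, with 43.4 CPM per kb. *Bmpr1a* followed with 38.9, *Id3* with 34.6 and *Id1* with 24.8 CPM per kb, and in this upper part of the order the ranges of neighbouring genes over the libraries overlapped. *Tgfbr1* came next with 15.7 CPM per kb and *Id4* with 8.69, both separated from their neighbours in every library. *Smad7* had 2.92 and *Tgfbr2* 2.13 CPM per kb, with overlapping ranges, and *Smad6* was lowest at 0.906 CPM per kb. The BMP type I receptor was thus the most abundant of the receptor genes examined and both inhibitory SMADs were among the least abundant genes of the set.

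**Figure D1:**
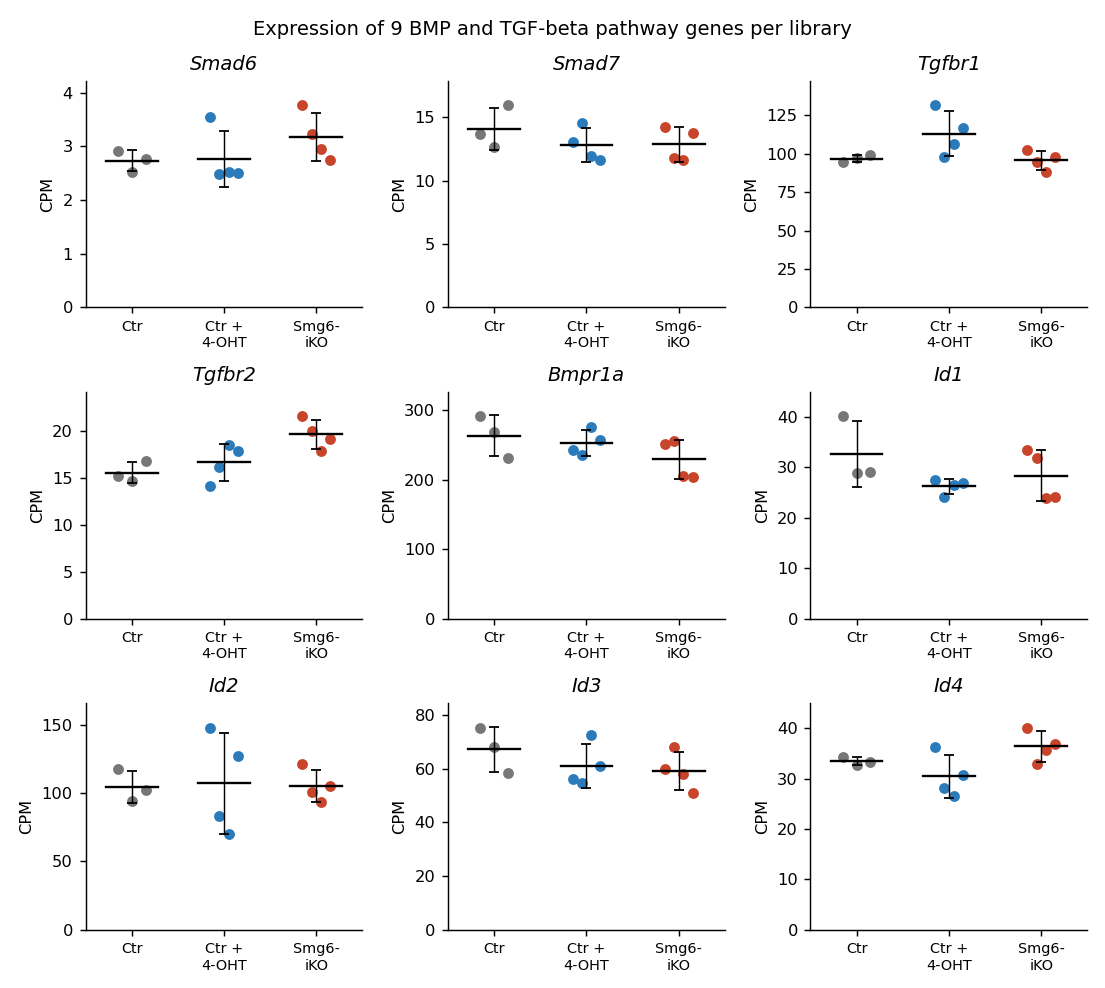
Level in CPM (y axis, from 0) of each of the 9 genes in every library (points), by group (x axis), with the group mean (line) and SD (bar). The groups overlap for each gene except *Tgfbr2*, where the 4 *Smg6*-iKO libraries lie above the 3 Ctr libraries, and *Id1*, where the 4 Ctr + 4-OHT libraries lie below the 3 Ctr libraries.

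*Smad7* (ENSMUSG00000025880, on chromosome 18) encodes an inhibitory SMAD that blocks type I receptors of both branches and recruits ubiquitin ligases to them. It had 13.7, 12.7 and 15.96 CPM in Ctr. In Ctr + 4-OHT it had 13.1, 14.6, 11.9 and 11.6 CPM, and in *Smg6*-iKO 14.3, 11.8, 11.6 and 13.8 CPM. The 3 groups overlapped, and the highest value of all was in a Ctr library. *Smad7* in *Smg6*-iKO differed from Ctr + 4-OHT by 0.02 on the log2 scale (SE 0.10, adjusted p = 0.946 from edgeR; p = 0.971 in an exact permutation of the libraries, which like all below is two-sided), with a 95% interval of 0.864-fold to 1.19-fold. Against Ctr the log2 fold change was -0.13 (SE 0.11, adjusted p = 0.490 from edgeR), with an interval of 0.775-fold to 1.08-fold, and it became -0.21 without Ctr SMH_132, -0.04 without Ctr SMH_133 and -0.08 without *Smg6*-iKO SMH_132. In the 3 embryos that gave a library to both groups, *Smad7* was lower in the *Smg6*-iKO library each time, by -0.21, -0.13 and -0.21 on the log2 scale, and with the embryo as a block the difference of -0.18 was not called (adjusted p = 0.116 from edgeR). A change in *Smad7* was not called in any comparison. The counts are gene totals, so the level of a single *Smad7* isoform was not measured.

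*Smad6* (ENSMUSG00000036867, GRCm38 chromosome 9 from 63953076 to 64022059, minus strand) encodes the inhibitory SMAD that acts mainly on BMP receptors. It had 2.91, 2.53 and 2.76 CPM in Ctr, and 3.54, 2.49, 2.52 and 2.51 CPM in Ctr + 4-OHT. In *Smg6*-iKO it had 3.76, 3.23, 2.95 and 2.75 CPM. Library SMH_125 stood above the other Ctr + 4-OHT libraries and the groups overlapped. *Smad6* in *Smg6*-iKO differed by 0.21 on the log2 scale from Ctr + 4-OHT (SE 0.16, adjusted p = 0.549 from edgeR) and by 0.22 from Ctr (SE 0.15, adjusted p = 0.376), neither of which was called. Both became 0.12 without *Smg6*-iKO SMH_127, and the first became 0.34 without Ctr + 4-OHT SMH_125.

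*Tgfbr2* (ENSMUSG00000032440, chromosome 9 from 116084293 to 116175360, minus strand) encodes the type II receptor that binds TGF-beta first. It had 15.2, 14.7 and 16.8 CPM in Ctr, and 14.1, 16.2, 18.5 and 17.8 CPM in Ctr + 4-OHT. In *Smg6*-iKO it had 21.5, 20.0, 17.9 and 19.1 CPM. Every *Smg6*-iKO library lay above every Ctr library, while the lowest *Smg6*-iKO library lay within the range of Ctr + 4-OHT. In *Smg6*-iKO, *Tgfbr2* exceeded Ctr by 0.34 on the log2 scale, or 1.26-fold (SE 0.086, adjusted p = 0.0357 from edgeR; exact permutation p = 0.0286, the smallest that 3 against 4 libraries allow). Both tests treated the libraries as independent, although the 3 Ctr embryos also gave *Smg6*-iKO libraries. *Tgfbr2* was the only one of the 9 genes called in this comparison, where 9.25% of all 17974 genes tested were called (4.27% as higher), and the only one without overlap, where 23.3% of all genes had none (11.4% with *Smg6*-iKO higher). It also was the only one with an unadjusted p under 0.05, as were 26.9% of all genes. The difference was present in each shared embryo, with 0.40, 0.28 and 0.19. Its call was lost without Ctr SMH_128 (adjusted p = 0.118), Ctr SMH_132 (0.136), *Smg6*-iKO SMH_127 (0.0835) or *Smg6*-iKO SMH_133 (0.0776), with log2 fold changes from 0.29 to 0.35 in these edgeR fits, and with all 11 libraries in one fit (0.34, adjusted p = 0.0775). *Tgfbr2* is also known in mesenchymal and endothelial cells. The pericyte and mesenchymal marker sum was highest in *Smg6*-iKO SMH_127, the library with the highest *Tgfbr2*, and lowest of all libraries in *Smg6*-iKO SMH_132, with 266 CPM against 353 CPM in Ctr SMH_132. *Tgfbr2* in *Smg6*-iKO SMH_132 lay above every Ctr library. The part of mesenchymal and endothelial cells in the level of *Tgfbr2* was not tested. With the embryo as a block, to which *Smg6*-iKO SMH_127 adds nothing, *Tgfbr2* was called higher. Of the pericyte and mesenchymal markers, *Pdgfrb* was called lower with the block by -0.41 (adjusted p = 0.00864 from edgeR) and *Col1a1* higher by 0.26 (adjusted p = 0.0289). The other markers tested, *Rgs5*, *Col3a1* and *Col1a2*, had 0.44, 0.22 and 0.095 and were not called (adjusted p = 0.288, 0.311 and 0.636 from edgeR). Against Ctr + 4-OHT the log2 fold change of *Tgfbr2* was 0.25 (SE 0.098, adjusted p = 0.236 from edgeR; exact permutation p = 0.0571).

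*Tgfbr1* (ENSMUSG00000007613, chromosome 4 from 47353222 to 47414931, plus strand) encodes the type I receptor of TGF-beta. It had 94.5, 97.1 and 99.1 CPM in Ctr, and 131.6, 98.2, 106 and 117 CPM in Ctr + 4-OHT. In *Smg6*-iKO it had 103, 94.6, 88.3 and 97.6 CPM. The 3 highest values were in Ctr + 4-OHT, whereas SMH_126 of that group lay within the range of Ctr, and the range of *Smg6*-iKO was wider than that of Ctr and enclosed it. Against Ctr + 4-OHT, *Tgfbr1* in *Smg6*-iKO had a log2 fold change of -0.23 (SE 0.087, adjusted p = 0.220 from edgeR; exact permutation p = 0.0571). Against Ctr it was -0.02 (SE 0.060, adjusted p = 0.893), with a 95% interval of 0.902-fold to 1.08-fold. Between Ctr + 4-OHT and Ctr it was 0.22 (SE 0.093, adjusted p = 0.575), so the control groups stood as far apart in *Tgfbr1* as *Smg6*-iKO and Ctr + 4-OHT did.

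*Bmpr1a* (ENSMUSG00000021796, chromosome 14 from 34410734 to 34503341, minus strand) encodes a BMP type I receptor. It had 291, 268 and 231 CPM in Ctr, and 242, 235, 276 and 257 CPM in Ctr + 4-OHT. In *Smg6*-iKO it had 251.0, 256, 206 and 203 CPM. The groups overlapped, with the lowest values of all in *Smg6*-iKO SMH_132 and SMH_133. Without regard to embryo, the log2 fold change of *Bmpr1a* in *Smg6*-iKO was -0.13 against Ctr + 4-OHT (SE 0.089, adjusted p = 0.503 from edgeR) and -0.20 against Ctr (SE 0.10, adjusted p = 0.233), and neither was called. They became -0.08 without *Smg6*-iKO SMH_133 and -0.12 without Ctr SMH_128. Within embryos SMH_128, SMH_132 and SMH_133 it was lower in the *Smg6*-iKO library by -0.18, -0.38 and -0.18, and with the embryo as a block *Bmpr1a* was called lower than in Ctr by -0.25 (SE 0.053, adjusted p = 0.00264 from edgeR).

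The *Id* genes encode helix-loop-helix proteins without a DNA-binding region, which bind E proteins and so keep these from activating differentiation genes. *Id1* (ENSMUSG00000042745, chromosome 2 from 152736251 to 152737410, plus strand) had 40.0, 28.8 and 29.0 CPM in Ctr. In Ctr + 4-OHT it had 27.5, 24.1, 26.5 and 27.0 CPM, and in *Smg6*-iKO it had 33.5, 31.8, 23.9 and 24.1 CPM. Ctr SMH_128 was the highest library, the *Smg6*-iKO libraries fell on both sides of Ctr + 4-OHT, and all Ctr + 4-OHT libraries lay below all Ctr libraries. *Id1* in *Smg6*-iKO differed by 0.12 from Ctr + 4-OHT (SE 0.11, adjusted p = 0.644 from edgeR) and by -0.20 from Ctr (SE 0.15, adjusted p = 0.411). The value against Ctr became -0.02 without Ctr SMH_128 (adjusted p = 0.944 from edgeR) and -0.13 without *Smg6*-iKO SMH_132. The value against Ctr + 4-OHT became 0.03 without *Smg6*-iKO SMH_127, 0.06 without SMH_128, and 0.19 and 0.18 without SMH_132 and SMH_133. Within embryos SMH_128, SMH_132 and SMH_133 it was lower in *Smg6*-iKO by -0.33, -0.26 and -0.26, and with the embryo as a block *Id1* was called lower than in Ctr by -0.29 (SE 0.063, adjusted p = 0.00330 from edgeR).

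*Id3* (ENSMUSG00000007872, chromosome 4 from 136143497 to 136145755, plus strand) had 75.3, 68.0 and 58.4 CPM in Ctr. It had 56.2, 54.6, 72.4 and 60.8 CPM in Ctr + 4-OHT, and 60.0, 68.0, 58.2 and 50.8 CPM in *Smg6*-iKO. The groups overlapped, and in both Ctr and *Smg6*-iKO embryo SMH_128 was highest and embryo SMH_133 lowest. *Id3* in *Smg6*-iKO differed by -0.03 from Ctr + 4-OHT (SE 0.11, adjusted p = 0.909 from edgeR) and by -0.18 from Ctr (SE 0.10, adjusted p = 0.290). The latter became -0.09 without Ctr SMH_128, -0.28 without Ctr SMH_133 and -0.12 without *Smg6*-iKO SMH_133. Within embryos SMH_128, SMH_132 and SMH_133 it was lower in *Smg6*-iKO by -0.15, -0.22 and -0.20, and with the embryo as a block *Id3* was called lower than in Ctr by -0.19 (SE 0.051, adjusted p = 0.0128 from edgeR).

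*Id2* (ENSMUSG00000020644, chromosome 12 from 25093799 to 25097140, minus strand) had 118, 94.0 and 102 CPM in Ctr. It had 148, 83.3, 69.9 and 127.2 CPM in Ctr + 4-OHT, and 122, 101, 93.8 and 106 CPM in *Smg6*-iKO. Ctr + 4-OHT held both the highest and the lowest values, with an SD of 36.7 CPM (n = 4) against 11.97 (n = 3) in Ctr and 11.8 (n = 4) in *Smg6*-iKO. *Id2* in *Smg6*-iKO differed by -0.01 from Ctr + 4-OHT (SE 0.20, adjusted p = 0.988 from edgeR), with a wide 95% interval of 0.725-fold to 1.36-fold, and by 0.01 from Ctr (SE 0.095, adjusted p = 0.949). The sign of either value turned with the processing, and no direction can be given for *Id2*.

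*Id4* (ENSMUSG00000021379, chromosome 13 from 48261228 to 48266026, plus strand) had 34.3, 32.7 and 33.4 CPM in Ctr. It had 36.3, 28.2, 26.6 and 30.7 CPM in Ctr + 4-OHT, and 40.2, 32.9, 35.6 and 37.0 CPM in *Smg6*-iKO. The Ctr libraries lay close together, and Ctr + 4-OHT SMH_125 overlapped with *Smg6*-iKO. *Id4* in *Smg6*-iKO had a log2 fold change of 0.27 against Ctr + 4-OHT (SE 0.10, adjusted p = 0.210 from edgeR; exact permutation p = 0.0857) and of 0.12 against Ctr (SE 0.071, adjusted p = 0.292), and neither was called. The latter became 0.07 without *Smg6*-iKO SMH_127.

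**Figure D2:**
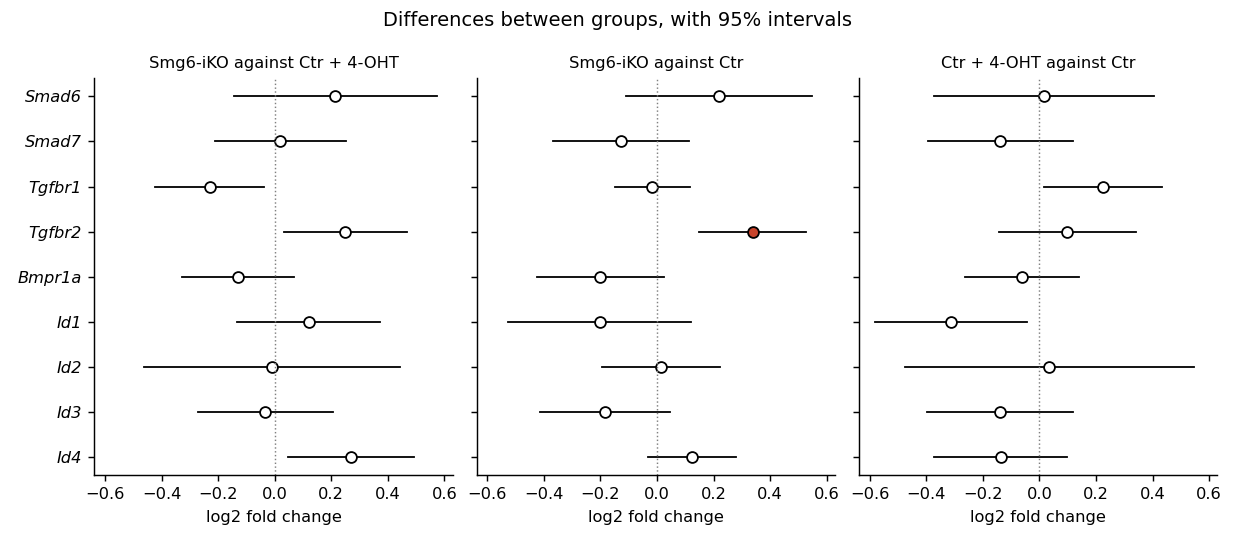
Log2 fold change (x axis) of each of the 9 genes with its 95% interval from edgeR in the 3 comparisons, where a filled point has an adjusted p under 0.05. The only filled point is *Tgfbr2* in *Smg6*-iKO against Ctr, at 0.34.

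Between *Smg6*-iKO and Ctr + 4-OHT, 0 of the 9 genes were called by edgeR, where 1.17% of the 17558 genes tested were called, and DESeq2's Wald test also called 0. An unadjusted p under 0.05 was found for 3 of the 9 (*Tgfbr1*, *Tgfbr2* and *Id4*), against 16.7% of all genes. The 9 log2 fold changes ran from -0.23 to 0.27 with a median of 0.02, and the median over all genes tested was 0.01.

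Between *Smg6*-iKO and Ctr, the call of *Tgfbr2* made 1 of 9, or 11.1%, beside the 9.25% of all genes. The Ctr and *Smg6*-iKO libraries of embryos SMH_128, SMH_132 and SMH_133 come from the same animals. With the embryo as a block, 4 of the 9 genes were called, *Tgfbr2* as higher and *Bmpr1a*, *Id1* and *Id3* as lower, or 44.4% beside 21.4% of all genes (10.3% higher and 11.2% lower). *Smg6*-iKO SMH_127 has no Ctr library of its own and adds nothing to the blocked difference. Of the 8 progenitor markers, *Sox2*, *Pax6*, *Fabp7*, *Sox1* and *Hes5* were called lower in *Smg6*-iKO than in Ctr, by -0.29 (*Fabp7*) to -1.28 (*Hes5*), in the fit without the block. Of the 4 astrocyte markers, *Gfap* was called higher by 1.33, while *Aldh1l1*, *Aqp4* and *S100b* had -0.12, 0.11 and 0.56 and were not called (adjusted p = 0.241, 0.769 and 0.370 from edgeR). With the block, the same progenitor markers and *Gfap* were called, and 4 of the 6 neuron markers (*Tubb3*, *Dcx*, *Stmn2* and *Snap25*) were called higher as well, by 0.17 (*Dcx*) to 0.37 (*Tubb3*), as were *S100b* (0.74) and the oligodendrocyte lineage markers *Olig2* (0.17) and *Mbp* (0.56). The oligodendrocyte lineage markers *Sox10* and *Pdgfra* had -0.02 and -0.09 with the block and were not called (adjusted p = 0.861 and 0.338 from edgeR). *Aldh1l1* had -0.13 with the block (adjusted p = 0.0760 from edgeR). Progenitors are known to express *Bmpr1a*, *Id1* and *Id3*, and the part of these markers in the differences of the 3 genes was not tested. With upper-quartile in place of TMM scaling, the calls over all genes moved from 767 higher and 896 lower to 1089 higher and 694 lower.

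**Figure D3:**
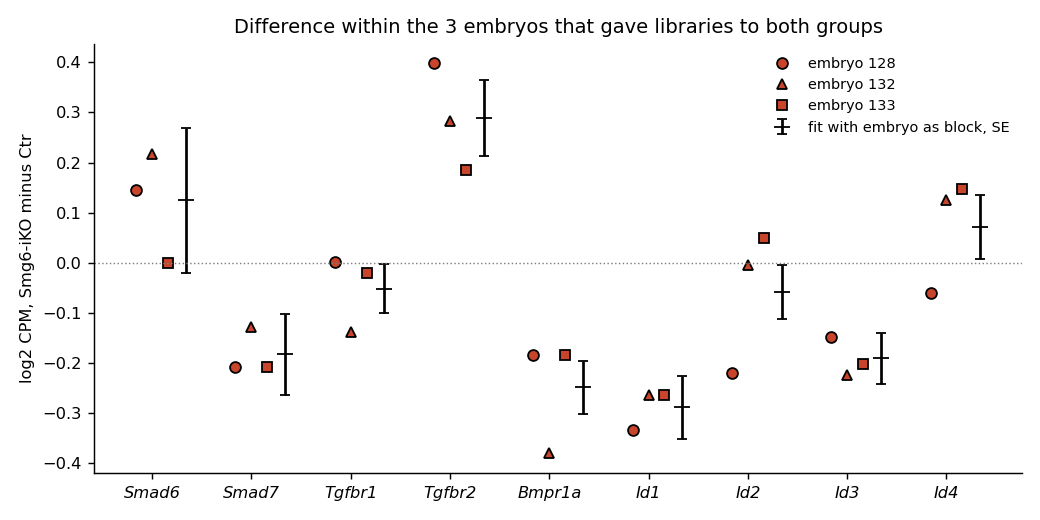
Difference of log2 CPM between the *Smg6*-iKO and the Ctr library (y axis) of embryos SMH_128, SMH_132 and SMH_133 (symbols) for the 9 genes (x axis), beside the log2 fold change and SE of the edgeR fit with the embryo as a block (bars). All 3 embryos lie below 0 for *Smad7*, *Bmpr1a*, *Id1* and *Id3* and above 0 for *Tgfbr2*.

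Between Ctr + 4-OHT and Ctr, 0 of the 9 genes were called by edgeR or DESeq2, where edgeR called 0.221% of the 17665 genes tested. *Tgfbr1* and *Id1* had an unadjusted p under 0.05, which makes 2 of 9 beside 8.28% of all genes. *Id1* was the only one of the 9 without overlap, against 8.71% of all genes (4.91% with Ctr + 4-OHT lower), with a log2 fold change of -0.31 (SE 0.12, adjusted p = 0.527 from edgeR; exact permutation p = 0.0286). Without Ctr SMH_128, the highest *Id1* library, this became -0.14 (adjusted p = 0.925 from edgeR). The comparisons with *Smg6*-iKO use these same control libraries, so they are not independent of each other.

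RefSeq promoters (GRCm38.p6, from 250 bases before to 50 after the start) are described for 6 of the 9 genes (*Smad6*, *Tgfbr1*, *Bmpr1a*, *Id2*, *Id3* and *Id4*). *Id1* had no entry, and the promoter of *Smad7* was not searched. *Tgfbr1* has a pair of listed promoters and the others 1 each, which makes 7 promoters. They were searched on both strands for a GC-rich element known from BMP-responsive promoters (GGCGCC), for the SMAD-binding GTCTG, and for the E-box CANNTG. The GC-rich element was found in 4 of the 7 promoters (1 of *Tgfbr1* and those of *Bmpr1a*, *Id2* and *Id4*), against 11.9% of all 32851 promoters listed. GTCTG was found in 2 of the 7 (the other *Tgfbr1* promoter and *Id3*), against 49.6%, and CANNTG in 3 (*Smad6*, that same *Tgfbr1* promoter and *Id2*), against 72.3%. Matches of different motifs overlapped in 0 cases. Such a match is a description of the letters and not of binding. The stretches around the first 2 motifs are given for *Bmpr1a* and *Id3*, which were called against Ctr with the embryo as a block, in the direction of transcription and with the motif or its reverse complement in capitals. They lie at chr14:34502727-34502756 (minus strand) for *Bmpr1a* and at chr4:136143643-136143671 and chr4:136143742-136143770 (plus strand) for *Id3*, and the motifs begin 198, 167 and 68 bases before the start.
Bmpr1a: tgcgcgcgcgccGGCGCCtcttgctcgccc
Id3 distal: tgtcctcggcgtCAGACcagcctaaggaa
Id3 proximal: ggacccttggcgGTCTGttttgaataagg
The 2 stretches of *Id3* hold the motif in opposite orientations, the distal one as the reverse complement.

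The wider pathway was described with 95 listed genes, of which 94 were matched and 82 tested in both comparisons with *Smg6*-iKO. Against Ctr + 4-OHT, 1 of the 82 was called, or 1.22% beside 1.17% of all genes. This was *Junb*, a transcription factor gene induced by TGF-beta, with 23.6, 28.6, 25.0 and 20.6 CPM in Ctr + 4-OHT and 32.2, 35.7, 33.3 and 33.3 CPM in *Smg6*-iKO. The groups did not overlap, and *Junb* was higher in *Smg6*-iKO by 0.47 (SE 0.092, adjusted p = 0.0407 from edgeR). The *Junb* call held without Ctr + 4-OHT SMH_126 and was lost when any other library was left out (Ctr + 4-OHT SMH_125, SMH_129 and SMH_131 and every *Smg6*-iKO library), with log2 fold changes from 0.39 to 0.49 and adjusted p from 0.0699 to 0.135. Against Ctr, *Junb* was higher by 0.28 (SE 0.074, adjusted p = 0.0431 from edgeR), a call that held without Ctr SMH_133 and was lost when any other library of the comparison was left out (0.19 to 0.30, adjusted p from 0.0575 to 0.156) or all libraries were in one fit (0.134).

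Against Ctr, 12 of the 82 genes were called, 4 higher and 8 lower in *Smg6*-iKO, or 14.6% beside 9.25% of all genes (4.27% higher and 4.98% lower), with a median log2 fold change of 0.02 over the 82 and 0.01 over all genes. With the embryo as a block, 9 were called higher and 20 lower, or 35.4% beside 21.4%. The number without the block fell to 5 without Ctr SMH_128 or Ctr SMH_132, to 6 without *Smg6*-iKO SMH_127 or SMH_133, and to 7 without *Smg6*-iKO SMH_132. Single calls lost without a library are named with their genes below. Among the receptors, 1 of 13 was called, *Bmpr1b*, the BMP type I receptor most like *Bmpr1a*, which was lower by -0.50 (SE 0.095, adjusted p = 0.0119 from edgeR). It had 80.9, 76.1 and 65.3 CPM in Ctr and 50.6, 60.0, 52.7 and 46.5 CPM in *Smg6*-iKO, without overlap, and its call was lost without Ctr SMH_128 (adjusted p = 0.0537) or SMH_132 (0.0506). With the block, *Bmpr2*, the type II receptor for BMPs, was lower by -0.27 (adjusted p = 0.00149) and the co-receptor gene *Rgma* lower by -0.29 (adjusted p = 0.0140), while the activin type I receptor gene *Acvr1c* was higher by 0.48 (adjusted p = 0.0390 from edgeR). Mean levels in Ctr, Ctr + 4-OHT and *Smg6*-iKO were 200, 176 and 171 CPM for *Bmpr2*. In the same order they were 66.3, 52.6 and 54.2 CPM for *Rgma*, and 1.85, 3.13 and 2.83 CPM for *Acvr1c*.

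Of the 6 receptor and common SMAD genes, *Smad4* alone was called, as lower by -0.19 than in Ctr (SE 0.048, adjusted p = 0.0328 from edgeR). It had 116, 115.6 and 115 CPM in Ctr and 103, 104, 99.0 and 97.6 CPM in *Smg6*-iKO. The *Smad4* call held without *Smg6*-iKO SMH_128 and was lost when any other library was left out (-0.18 to -0.20, adjusted p from 0.0597 to 0.106), and likewise with upper-quartile scaling (-0.16, adjusted p = 0.0543), with every library in one fit (-0.19, 0.0580) and when low counts were not filtered (-0.19, 0.0734). Of the 7 TGF-beta and activin ligand genes tested, *Inhbb*, an activin subunit, was lower by -0.30 (SE 0.081, adjusted p = 0.0447 from edgeR), and with the block *Tgfb2* was also lower, by -0.42 (adjusted p = 0.000342). Of the 9 BMP and GDF ligand genes tested, *Bmp3* was higher by 0.48 (SE 0.13, adjusted p = 0.0448 from edgeR), and with the block also *Gdf15*, a stress-induced member of the family, by 0.44 (adjusted p = 0.000921), while *Bmp5* was lower by -0.73 (adjusted p = 0.0263), against 0.06 (adjusted p = 0.954) without it. *Inhbb* lost its call when any Ctr library or *Smg6*-iKO SMH_127 or SMH_133 was left out (adjusted p from 0.0711 to 0.144), and *Bmp3* when any library of either group was (0.0545 to 0.137). *Inhbb* also lost it with upper-quartile scaling (adjusted p = 0.0631 from edgeR) and in one fit (0.0570), and *Bmp3* without the filter (0.0608), in one fit (0.0559) and by DESeq2 (0.0560). Among 11 intracellular negative regulators, *Smurf1*, a ubiquitin ligase that SMAD7 brings to the receptors, was higher by 0.23 (SE 0.058, adjusted p = 0.0324 from edgeR), a call lost without Ctr SMH_128 or SMH_132 or *Smg6*-iKO SMH_127, SMH_132 or SMH_133 (adjusted p from 0.0572 to 0.123) or with all libraries in one fit (0.0565), while with the block *Usp15*, a deubiquitinase, was also higher by 0.16 (adjusted p = 0.0206). The SMAD repressor gene *Skil* and the ubiquitin ligase gene *Nedd4l* were lower with the block, by -0.14 (adjusted p = 0.0357 from edgeR) and -0.15 (adjusted p = 0.0427).

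Of the 19 extracellular antagonists and modulators tested, *Chrdl1* and *Nbl1*, which bind BMPs, were lower in *Smg6*-iKO than in Ctr, and *Lefty2*, an inhibitor of nodal signalling, was higher. *Chrdl1* had 27.9, 23.9 and 26.2 CPM in Ctr, 21.8, 17.8, 23.5 and 21.2 CPM in Ctr + 4-OHT, and 19.4, 17.6, 15.1 and 15.6 CPM in *Smg6*-iKO. Its fall against Ctr was -0.62 (SE 0.097, adjusted p = 0.00558 from edgeR), and against Ctr + 4-OHT the value was -0.31 (adjusted p = 0.186). *Nbl1* had 32.7, 29.7 and 31.0 CPM in Ctr, 17.2, 18.9, 21.0 and 17.3 CPM in Ctr + 4-OHT, and 17.9, 18.0, 16.2 and 17.0 CPM in *Smg6*-iKO. Both groups that received 4-OHT thus lay below every Ctr library, and *Smg6*-iKO was lower than Ctr by -0.85 (SE 0.067, adjusted p = 0.000103 from edgeR). *Lefty2* was higher by 0.89 (SE 0.22, adjusted p = 0.0319 from edgeR), with means of 1.49 CPM in *Smg6*-iKO, 1.42 in Ctr + 4-OHT and 0.812 in Ctr, and its call was lost without Ctr SMH_128 or SMH_132 or *Smg6*-iKO SMH_127, SMH_132 or SMH_133 (adjusted p from 0.0615 to 0.103). With the block, the BMP antagonists *Nog* and *Twsg1* were also lower in *Smg6*-iKO, by -0.44 (adjusted p = 0.0257 from edgeR) and -0.22 (adjusted p = 0.00686).

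Of 14 further target genes tested, *Junb* was higher and *Hey1*, *Acta2* and *Tagln* lower in *Smg6*-iKO than in Ctr. *Hey1*, a repressor gene that answers to BMP and Notch signals, was lower by -0.47 (SE 0.086, adjusted p = 0.0100 from edgeR), a call that held with each library left out and was lost with all 11 libraries in one fit (adjusted p = 0.0552). Mean levels of *Hey1* were 74.7 CPM in Ctr, 58.2 CPM in Ctr + 4-OHT and 53.9 CPM in *Smg6*-iKO. *Acta2*, the smooth muscle actin gene, had 3.85, 6.78 and 8.26 CPM in Ctr, 0.856, 1.76, 1.91 and 2.61 CPM in Ctr + 4-OHT, and 2.65, 0.953, 1.94 and 1.87 CPM in *Smg6*-iKO. *Tagln*, which encodes another smooth muscle protein, was likewise highest in Ctr, with 6.59, 9.08 and 8.80 CPM in Ctr, 3.05, 3.03, 3.91 and 2.33 CPM in Ctr + 4-OHT, and 4.58, 2.93, 2.19 and 2.97 CPM in *Smg6*-iKO. Against Ctr, *Acta2* in *Smg6*-iKO was lower by -1.74 (SE 0.30, adjusted p = 0.00846 from edgeR) and *Tagln* by -1.35 (SE 0.21, adjusted p = 0.00569). With the block, the collagen genes *Col4a1* and *Col1a1* were higher by 0.24 (adjusted p = 0.0123) and 0.26 (0.0289), and *Sox9* and the fibronectin gene *Fn1* lower by -0.22 (0.0182) and -0.19 (0.0131). Without it, these 4 genes had 0.76, 1.26, -0.24 and 0.12 and were not called, and *Smg6*-iKO SMH_127, the library with the highest mesenchymal marker sum, adds to the difference only there. Mean levels of *Sox9* were 48.6 CPM in Ctr, 40.3 CPM in Ctr + 4-OHT and 41.2 CPM in *Smg6*-iKO. Of the 3 E protein genes, whose products the ID proteins bind, *Tcf4* had -0.15 (adjusted p = 0.106 from edgeR) and *Tcf12* -0.17 (0.0589) without the block, and both were called lower with it, by -0.17 each (adjusted p = 0.0182 for both).

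The 3 genes of each list with the highest CPM per kb were described whether or not they were called, and 15 of them were called in no comparison and not with the block. Against Ctr their log2 fold changes in *Smg6*-iKO ran from -0.17 (*Smad5*) to 0.31 (*Bmp4*), with adjusted p from 0.187 (*Rgmb*) to 0.642 (*Klf10*) from edgeR. *Smad5*, which encodes a SMAD activated by BMP receptors, had 246 ± 21.4 CPM in Ctr (SD, n = 3), 258 ± 23.98 in Ctr + 4-OHT (n = 4) and 219 ± 19.1 in *Smg6*-iKO (n = 4). Its log2 fold change was -0.17 against Ctr (SE 0.080, adjusted p = 0.213 from edgeR, and 0.0547 with the block) and -0.23 against Ctr + 4-OHT (SE 0.081, adjusted p = 0.197). *Smad2*, which encodes a SMAD of the TGF-beta and activin branch, had -0.06 against Ctr (SE 0.059). Among the ligands, *Gdf11* had -0.13 against Ctr (SE 0.065), *Inha*, an inhibin subunit gene, 0.27 (SE 0.13), *Bmp7* -0.08 (SE 0.061) and *Bmp4* 0.31 (SE 0.17). The activin receptor genes *Acvr1b* and *Acvr2a* had 0.08 (SE 0.063) and 0.06 (SE 0.067), and the BMP co-receptor gene *Rgmb* 0.23 (SE 0.10). *Fstl1*, of the follistatin family, had 0.19 (SE 0.18). The negative regulators *Ski*, *Ppm1a* and *Smurf2* had -0.06 (SE 0.051), 0.06 (SE 0.056) and -0.06 (SE 0.052), the TGF-beta-induced *Klf10* 0.07 (SE 0.089) and the E protein gene *Tcf3* -0.11 (SE 0.055).

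Of the 81 listed genes tested between Ctr + 4-OHT and Ctr, 2 were called, both lower in Ctr + 4-OHT, or 2.47% beside 0.221% of all genes. *Nbl1* was lower by -0.74 (SE 0.089, adjusted p = 0.0107 from edgeR) and *Tagln* by -1.40 (SE 0.19, adjusted p = 0.0207). *Acta2* had -1.81 (SE 0.34, adjusted p = 0.105) and was not called. *Nbl1* lost its call without Ctr SMH_128, SMH_132 or SMH_133 or Ctr + 4-OHT SMH_126, and *Tagln* without Ctr SMH_128, SMH_132 or SMH_133 or Ctr + 4-OHT SMH_125 or SMH_126, with adjusted p from 0.0504 to 0.158. Between *Smg6*-iKO and Ctr + 4-OHT, the log2 fold changes were -0.10 for *Nbl1* (SE 0.082), 0.07 for *Acta2* (SE 0.35), 0.06 for *Tagln* (SE 0.23), 0.09 for *Lefty2* (SE 0.17) and 0.00136 for *Bmp3* (SE 0.12), so for these 5 genes the call against Ctr was not accompanied by a call against the treated control. Of all listed genes called in *Smg6*-iKO against Ctr, *Junb* alone was also called against Ctr + 4-OHT.

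**Figure D4:**
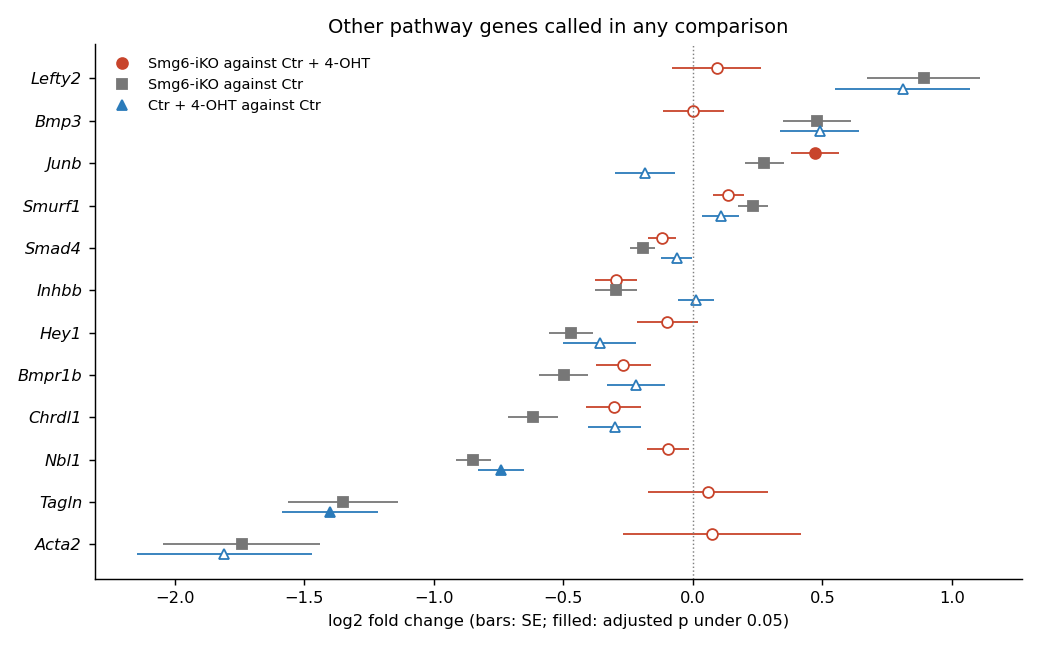
Log2 fold change (x axis) with SE of the 12 listed pathway genes other than the 9 that were called in any comparison, in *Smg6*-iKO against Ctr + 4-OHT (circles), *Smg6*-iKO against Ctr (squares) and Ctr + 4-OHT against Ctr (triangles), filled where the adjusted p was under 0.05. *Acta2*, *Tagln* and *Nbl1* lie far left against Ctr for both groups with 4-OHT and near 0 between these groups, and *Junb* is the only gene filled against Ctr + 4-OHT.

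The genes whose log2 CPM followed that of each member most closely over the 11 libraries, which come from 8 embryos, were picked as the highest Pearson r among 18123 genes and are given as a description. For *Id1* these were *Smad9* (r = 0.97), *Ccdc80* (0.94) and *Prrx1* (0.90), of which *Smad9* encodes a BMP receptor SMAD. *Smad9* had 2.81, 2.08 and 1.99 CPM in Ctr, 1.79, 1.57, 1.81 and 1.70 CPM in Ctr + 4-OHT, and 2.39, 2.09, 1.69 and 1.52 CPM in *Smg6*-iKO. Both genes were highest in Ctr SMH_128, followed by *Smg6*-iKO SMH_127 and SMH_128. For *Id2* the closest were *Elavl4* (0.97), *Trim2* (0.97) and *Lrrn3* (0.96), of which *Elavl4* encodes a neuronal RNA-binding protein.

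The summed level of 6 neuron markers was 1905, 1737 and 1897 CPM in Ctr, 2577, 1923, 1590 and 2403 CPM in Ctr + 4-OHT, and 2327, 2062, 2024 and 2205 CPM in *Smg6*-iKO. *Id2* and this sum had the same order of libraries within Ctr + 4-OHT, with SMH_125 highest and SMH_129 lowest, and the 3 libraries highest in *Id2* were also highest in the sum. The part of neurons in the level of *Id2* was not tested. *Id3* was closest to *Entpd5* (0.96) and *Id4* to *Adamts2* (0.91). Among the receptors, *Tgfbr1* was closest to *Ivns1abp* (0.96), *Tgfbr2* to *Rbm34* (0.96) and *Bmpr1a* to *Ppp1cb* (0.96). *Smad7* was closest to *Apoa1* (0.94) and *Smad6* to *Il34* (0.91), both of which had means under 1 CPM.

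**Figure D5:**
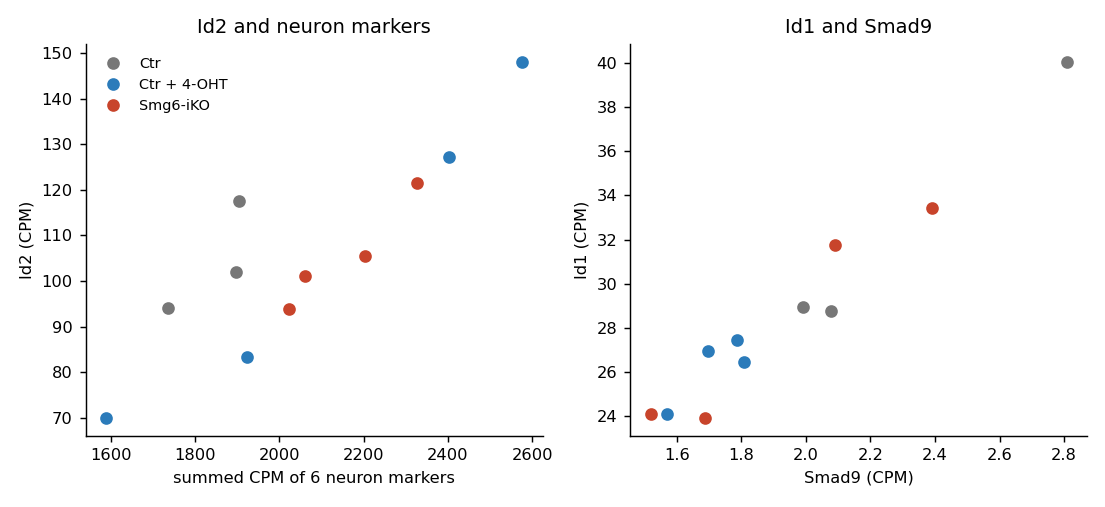
Left, *Id2* in CPM (y axis) against the summed CPM of 6 neuron markers (x axis), and right, *Id1* against *Smad9* in CPM, with a point for each of the 11 libraries coloured by group. The highest *Id2* value, 148 CPM, and the highest marker sum, 2577 CPM, belong to the same Ctr + 4-OHT library, and Ctr SMH_128 is highest in both *Id1* and *Smad9*.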

How the data were processed

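RNA of NPC cultures was sequenced in 11 libraries, and groups were taken from the sample labels. The authors made stranded total RNA libraries, mapped reads to GRCm38 with STAR 2.5.4b and counted them per Ensembl 92 gene with featureCounts 1.5.0. They deposited the counts without normalization, so depth (26418249 to 33756875 counts per library) and composition were scaled here. Counts were tested in R 4.3.3 with edgeR 4.0.16 (filterByExpr, TMM, quasi-likelihood test, Benjamini-Hochberg over all genes, adjusted p under 0.05), each comparison on its own groups. log2 CPM used a prior count of 2. SE is the log2 fold change over the square root of F. SDs, and p-values without the block, cover the spread between embryos and counting error. With the embryo as a block, p-values cover the spread of the differences within embryos and counting error.

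The members and lists were chosen with earlier results of these data known. The genes named are the members, the listed pathway genes called in a fit, the abundant genes of each list, and the 3 most similar genes per member, of which some are omitted. Embryo numbers in the labels pair Ctr and *Smg6*-iKO by animal. Deviations of same-embryo libraries from their group means correlated with r from 0.328 to 0.425 (3 pairs), and of different embryos with a mean of -0.128 (9 pairs). No libraries were duplicates. Alternatives were DESeq2 size factors, upper-quartile scaling, no filter, DESeq2 1.42.0, all libraries in one fit, the embryo as a replicate block, and each library left out. In tests on simulated data both tools made more false calls than the nominal share, DESeq2 more so than edgeR. The promoter of 1 member and the values of 1 marker gene are not reported here.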

Additional observations from a re-analysis of the deposited data

Results flagged for a closer look

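Of 42 groups of 4 libraries examined for a library far from the others, 1 stood out, where chance gives about 1 in 20. It was *Smad6* in Ctr + 4-OHT, where library SMH_125 had 3.54 CPM and the other 3 lay between 2.49 and 2.52 CPM. Without library SMH_125, the log2 fold change of *Smad6* in *Smg6*-iKO against Ctr + 4-OHT was 0.34 and remained uncalled, and that of Ctr + 4-OHT against Ctr turned from 0.02 to -0.12.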

How the results depend on the processing

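The 9 genes kept their call or its absence against Ctr + 4-OHT, and between the control groups, under each alternative run there (the block by embryo was run against Ctr only). Against Ctr, 1 gene was called, 0 with all libraries in one fit (*Tgfbr2*, adjusted p = 0.0775), 4 with the replicate block by embryo, and 0 to 1 with each library left out. All counted genes called against Ctr + 4-OHT (206) became 418 without the filter, 880 with DESeq2, 484 in one fit, and 66 to 174 with each library left out. Those against Ctr (1663) became 2714, 2407, 796 and 570 to 2524, and 3854 with the replicate block. Those between the controls (39) became 198, 168, 60 and 5 to 54. Listed pathway genes, counted under alternatives added after seeing the data, were 1 against Ctr + 4-OHT, with 3 by DESeq2, 2 in one fit and 0 to 1 with libraries left out. Against Ctr they were 12, with 22 without the filter, 6 in one fit, 29 with the replicate block and 5 to 12. Between the controls they were 2, with 4 without the filter and 0 to 2.

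Signs turned for values near 0. *Id2* became 0.0087 against Ctr + 4-OHT and *Tgfbr1* 0.016 against Ctr with upper-quartile scaling, and *Id2* -0.058 against Ctr with the block. With each library left out, the ranges against Ctr + 4-OHT were -0.034 to 0.088 for *Smad7*, -0.17 to 0.18 for *Id2* and -0.11 to 0.056 for *Id3*, those against Ctr -0.051 to 0.021 for *Tgfbr1* and -0.069 to 0.11 for *Id2*, and those between the controls -0.12 to 0.067 for *Smad6*, -0.14 to 0.016 for *Bmpr1a* and -0.15 to 0.19 for *Id2*. The calls of *Acta2*, *Chrdl1*, *Nbl1* and *Tagln* against Ctr held under each of the 13 alternatives. Where fewer libraries were used, fewer were available to estimate the spread; the cause of the other shifts was not tested.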
